A study of Drosophila melanogaster with 12 samples.

Results

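The 9 genes described here encode Drosophila proteins that place, help to place or remove methyl groups on lysine 9 of histone H3 (H3K9). They are the methyltransferase genes egg, Su(var)3-9 and G9a, the cofactor or partner genes wde, Su(var)2-10, Su(var)3-7 and ADD1, and the demethylase genes Kdm4A and Kdm4B. They were chosen by name and found by their FlyBase identifiers, and make up 9 of the 17023 genes in the count files. All 9 passed the filter on low counts, which kept 10105 genes for testing.

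Methylated H3K9 is the mark of heterochromatin, the compact and mostly silent part of the genome, where it is bound by HP1 proteins. SETDB1, encoded by egg, is the H3K9 methyltransferase that the ovarian germline depends on, and Windei, encoded by wde, is the cofactor that binds it and helps it to work in the nucleus. Su(var)3-9 methylates H3K9 mainly around the centromeres, G9a acts in euchromatin, and the Kdm4 enzymes take methyl groups off H3K9 and H3K36.

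Poly(A)-selected mRNA was sequenced from ovaries of Drosophila melanogaster, with every library labelled as coming from flies 1 to 3 days past eclosion. The 10 libraries used here form 5 sets of 2, and an adult control pair of the same series was left out by the rule that defines the gene set. The germline knockdown (GKD) sets are labelled SETDB1 GKD, wde GKD and Nup154 GKD, and the series' design gives the Nup154 knockdown, of a nuclear pore gene, as its developmental control. The control sets are both labelled as young controls, and are told apart by titles that name NGVP16 or virgin flies, with Dcr also in the title of the first virgin library.

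The titles name NGVP16 without saying what it stands for. The labels state no driver for the knockdown flies, no hairpin lines and no full genotypes, nor whether the control flies carried a driver. They also do not say that replicates came from separate flies, so p-values reflect the spread of these libraries alone, and part of it may be technical. Since the knockdowns are aimed at the germline and ovaries were sequenced, somatic cells still contribute to every value. In such bulk samples fewer cells of a type and less RNA per cell cannot be told apart.

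Total counts ranged from 7351948 to 20162235 per library. The NGVP16 pair stood apart, with a median squared replicate difference of 91.4 times the sampling noise, against 5.42 to 22.2 times in the other sets. Ribosomal protein genes took 24.1% of the counts of NGVP16 1 and 9.50% of those of NGVP16 2, and the difference between these libraries followed exon length across 6984 genes, with a Spearman's rho of -0.782 (genes are not independent replicates). The members whose calls are described are therefore given against the virgin pair as well, and with either NGVP16 library left out where that matters.

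Marker genes of ovarian cell types also took different shares of the counts in knockdowns and controls. The 13 germline marker genes took 0.404% to 0.733% of the counts in the 4 control libraries and 0.0876% to 0.194% in the 6 knockdown libraries, the 12 oocyte genes 0.631% to 0.853% and 0.0266% to 0.0715%, and the 17 eggshell genes 0.541% to 1.22% and 0.0209% to 0.186%. The 13 muscle sheath genes took 0.302% to 0.454% in the controls and 2.29% to 2.93% in the knockdowns, and the 10 hemocyte genes 0.203% to 0.500% and 0.864% to 1.36%. No germline, oocyte, muscle or hemocyte marker was at 0 counts in any of the 10 libraries, while 6 eggshell genes were at 0 in wde GKD 1 and 1 was at 0 in wde GKD 2. The 10 niche and escort cell genes took 0.00837% to 0.0157% in the controls and 0.0239% to 0.0425% in the knockdowns, and the 6 neuron genes 0.00276% to 0.00926% and 0.0133% to 0.0249%, again with no overlap. The 10 follicle cell genes overlapped, with 0.350% to 1.06% in the controls and 0.190% to 0.719% in the knockdowns, as did the 11 fat body genes, with 0.282% to 0.955% and 0.0794% to 0.768%. Over all knockdowns against all young controls edgeR called 10 germline genes lower and 1 higher. Genes within the follicle cell and fat body lists also went both ways in this comparison. There edgeR called 2 follicle cell genes higher (Fas3 and eya, by 3.51 and 1.36 on the log2 scale) and 3 lower. It called 4 fat body genes higher and 3 lower, where 32.2% of all genes were higher and 24.9% lower. The lower ones were the yolk protein genes, which are in both lists. The part of these shifts in the results on the 9 genes was not tested.

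The genes targeted by the knockdowns were looked at first. Levels are given as CPM, the counts scaled to a common total, after scaling of the libraries by the trimmed mean of M-values (TMM). Nup154 was at 78.1 and 73.7 CPM in Nup154 GKD, against 144 and 224 in the NGVP16 libraries and 229 and 286 in the virgin libraries, a change of -1.28 ± 0.31 on the log2 scale against the former (SE, adjusted p = 0.0121, edgeR's quasi-likelihood test with Benjamini-Hochberg adjustment over all genes). It was low in the other knockdowns too, at 72.4 and 109 CPM in the libraries labelled wde GKD (-1.02 ± 0.31, adjusted p = 0.0308) and at 103 and 98.5 CPM in SETDB1 GKD (-0.87 ± 0.30, 0.0678). It fell against the virgin pair in SETDB1 GKD, the libraries labelled wde GKD and Nup154 GKD by 1.36, 1.51 and 1.76 (adjusted p = 0.0099, 0.00508 and 0.00278). All 6 knockdown libraries lay below all 4 controls, as did those of 13.9% of genes tested. Set directly against Nup154 GKD, SETDB1 GKD differed by 0.41 ± 0.30 (adjusted p = 0.468) and the libraries labelled wde GKD by 0.26 ± 0.30 (0.708), so neither test told Nup154 GKD from the other knockdowns. Both SETDB1 GKD libraries still lay above both Nup154 GKD libraries, as did those of 32.7% of genes tested. The libraries labelled wde GKD overlapped Nup154 GKD.

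egg (FBgn0086908, chromosome 2R, 24775534 to 24779901 in dm6, minus strand) was at its lowest in SETDB1 GKD. Its levels there were 31.7 and 37.7 CPM, against 34.3 and 70.8 in the NGVP16 libraries and 64.5 and 75.5 in the virgin libraries. The libraries labelled wde GKD held 46.8 and 47.5 CPM and Nup154 GKD 55.1 and 56.1. The SETDB1 GKD libraries were thus below both virgin libraries and below the other knockdowns, but overlapped the NGVP16 pair through its low first library. Of all genes tested, 35.9% lay wholly below the virgin pair in SETDB1 GKD, 29.3% below the libraries labelled wde GKD and 36.9% below Nup154 GKD. Against the virgin pair egg fell by 1.01 ± 0.33 (adjusted p = 0.0404), a 2.01-fold lower level. Against the NGVP16 pair the change was -0.60 ± 0.32 (adjusted p = 0.206), with a 95% interval reaching up to 0.14.

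The fall of egg against the virgin pair did not keep its call when any 1 of the 8 knockdown and virgin libraries was left out, with changes of -0.90 to -1.14 and adjusted p from 0.0642 to 0.193. It was also lost with DESeq2 size factors (adjusted p = 0.0524) and with scaling to ribosomal protein genes (0.684). Against NGVP16 it was -1.10 without NGVP16 1 (adjusted p = 0.00601) and 0.02 without NGVP16 2. Against Nup154 GKD, the developmental control, egg differed by -0.68 ± 0.32 (adjusted p = 0.254). The exons of egg share 629 of 3937 bases with asRNA:CR44067 on the opposite strand, a gene with 0 counts in all 10 libraries.

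wde (FBgn0027499, chromosome 2R, 10800420 to 10808938, minus strand) was not shown to be lower in the libraries named for its knockdown. It stood at 74.3 and 92.9 CPM in the libraries labelled wde GKD, at 43.1 and 143 in the NGVP16 libraries, at 85.5 and 94.9 in the virgin libraries and at 87.8 and 88.2 in Nup154 GKD. Those 4 sets overlapped, and the change in the libraries labelled wde GKD was -0.15 ± 0.46 against the NGVP16 pair (adjusted p = 0.810, 95% interval -1.20 to 0.89). Without NGVP16 1 it was -0.89 (adjusted p = 0.0128) and without NGVP16 2 it was 0.96 (0.0113). The mRNA counts therefore do not show the targeted gene to be lower, and these libraries are called by their label throughout.

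In SETDB1 GKD the level of wde was higher than in any other library, at 234 and 193 CPM. The next highest value was the 143 CPM of NGVP16 2, so both SETDB1 GKD libraries lay above the other 8, as did 4.81% of all genes tested. The change was 1.20 ± 0.47 against the NGVP16 pair (2.29-fold, adjusted p = 0.0933) and the level was 2.37-fold that of the virgin pair (95% interval 0.18 to 2.30 on the log2 scale, adjusted p = 0.0671), and neither passed the threshold of 0.05. Against the libraries labelled wde GKD it was 1.35 ± 0.47 (adjusted p = 0.253) and against Nup154 GKD 1.28 ± 0.47 (adjusted p = 0.155), with 95% intervals of 0.29 to 2.42 and 0.22 to 2.34. The change against the NGVP16 pair was 0.50 without NGVP16 1 and 2.31 without NGVP16 2 (adjusted p = 0.137 and 0.000373), within a range over 21 alternatives of 0.000373 to 0.423.

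Other tools put wde in SETDB1 GKD past the threshold in some comparisons. DESeq2 gave an adjusted p of 0.0430 against the NGVP16 pair, 0.0165 against the virgin pair and 0.0491 against Nup154 GKD, and limma voom gave 0.00368 and 0.00244 for the last pair of comparisons. Over all alternatives the adjusted p ran up to 0.423, 0.226 and 0.615 in these comparisons, and with either NGVP16 library left out it was under 0.05 against each of the virgin, wde GKD and Nup154 GKD sets.

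The relation of the enzyme gene to its cofactor gene can also be read within each library, where scaling plays no part. Per kb of exon, wde stood at 5.99 and 4.14 times the level of egg in SETDB1 GKD. The same ratio was 1.02 and 1.64 in the NGVP16 libraries, 1.07 and 1.02 in the virgin libraries, 1.29 and 1.58 in the libraries labelled wde GKD and 1.29 and 1.27 in Nup154 GKD. The SETDB1 GKD libraries lay apart from the other 8, in which the ratio ranged from 1.02 to 1.64. egg is the gene targeted in SETDB1 GKD, so its low level there enters the ratio along with the level of wde. The trend over exon length between the NGVP16 libraries is not removed from it.

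**Figure D1:**
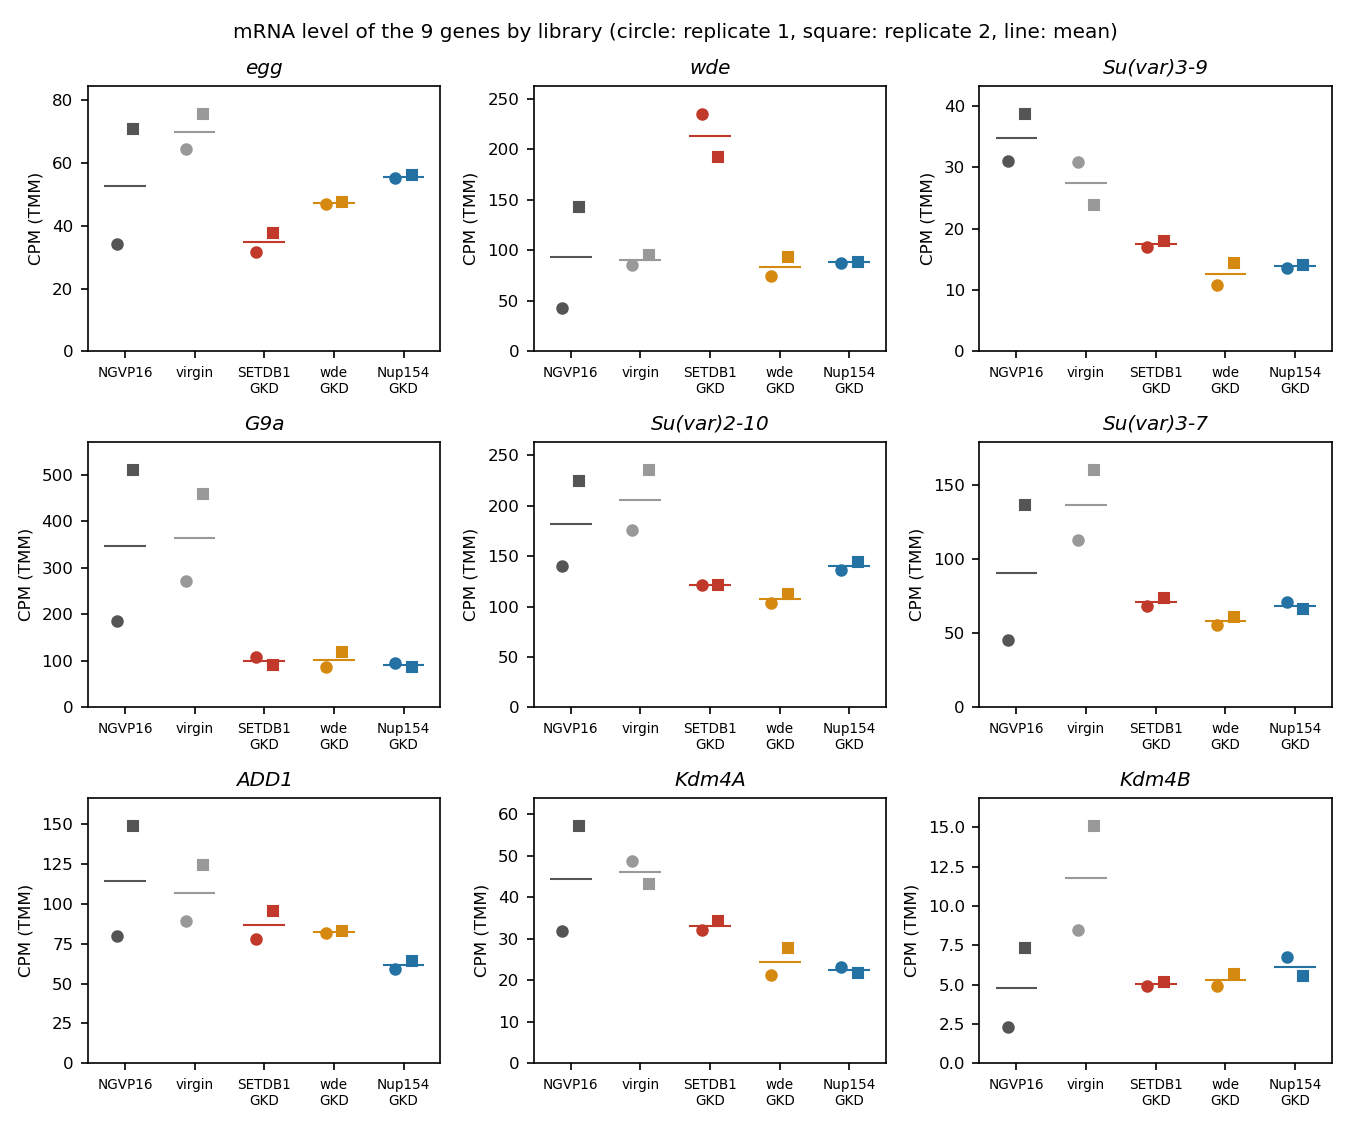
mRNA level of each of the 9 genes in the 10 libraries, in CPM after TMM scaling on a linear axis from 0, with a circle for replicate 1, a square for replicate 2 and a line for the mean of the set. The SETDB1 GKD libraries hold the highest levels of wde (234 and 193 CPM), and all 6 knockdown libraries lie below all 4 young controls for G9a and Su(var)3-9.

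G9a (FBgn0040372, chromosome X, 245978 to 254650, plus strand), whose enzyme makes mono- and dimethylated H3K9, fell in all 3 knockdowns. Its levels were 185 and 509 CPM in the NGVP16 libraries and 270 and 459 in the virgin libraries. They were 109 and 90.6 in SETDB1 GKD, 86.8 and 118 in the libraries labelled wde GKD and 94.3 and 87.0 in Nup154 GKD. The highest knockdown value, 118 CPM, lay below the lowest control value, 185 CPM, and the 3 knockdown sets overlapped one another.

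Against the NGVP16 pair G9a changed by -1.80 ± 0.47 in SETDB1 GKD (adjusted p = 0.0254), -1.76 ± 0.47 in the libraries labelled wde GKD (0.0202) and -1.94 ± 0.47 in Nup154 GKD (0.0130). These are 3.48-, 3.39- and 3.83-fold lower levels. Against the virgin pair the changes were -1.87 ± 0.47, -1.83 ± 0.47 and -2.01 ± 0.47 (adjusted p = 0.0159, 0.0142 and 0.0102). Set directly against Nup154 GKD, G9a differed by 0.14 ± 0.46 in SETDB1 GKD and 0.18 ± 0.46 in the libraries labelled wde GKD, with 95% intervals of -0.90 to 1.18 and -0.86 to 1.22. These intervals leave room for differences of about 1 log2 unit, and neither knockdown was told apart from the developmental control at this gene.

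The call of G9a against the NGVP16 pair ended without NGVP16 2 in SETDB1 GKD (-0.89, adjusted p = 0.0536) and in the libraries labelled wde GKD (-0.86, 0.0566); in Nup154 GKD it was -1.03 (0.0274), and without NGVP16 1 the changes were -2.43, -2.43 and -2.65. It also ended without either library of the knockdown compared, at adjusted p of 0.103 and 0.0935 (SETDB1 GKD), 0.139 and 0.0615 (wde GKD) and 0.0786 and 0.0903 (Nup154 GKD), and for SETDB1 GKD without either Nup154 GKD library (up to 0.0503). Scaling to ribosomal protein genes ended the call in all 6 comparisons (adjusted p from 0.146 to 0.385), limma voom ended it against NGVP16 in SETDB1 GKD and wde GKD (0.0776 and 0.0613), and a fit of only the libraries compared ended it against NGVP16 in all 3 (0.117, 0.0640 and 0.0553). Against the virgin pair it ended without either SETDB1 GKD library (0.0655 and 0.0773), without wde GKD 1 (0.106), without either Nup154 GKD library (0.0653 and 0.0750), and without virgin 2 in SETDB1 GKD and wde GKD (0.0778 and 0.0636).

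Su(var)3-9 (FBgn0263755, chromosome 3R, 15259864 to 15263458, minus strand) was the other methyltransferase gene whose knockdown and control libraries did not overlap. Its levels were 31.0 and 38.6 CPM in the NGVP16 pair, above all other libraries, as for 3.52% of genes tested, and 30.9 and 23.9 in the virgin pair. They were 17.0 and 18.1 in SETDB1 GKD, 10.7 and 14.4 in the libraries labelled wde GKD and 13.6 and 14.1 in Nup154 GKD. SETDB1 GKD was the highest of the knockdown sets, above all 4 libraries of the others. Of all genes tested, 26.4% lay wholly above the libraries labelled wde GKD in SETDB1 GKD and 32.7% wholly above Nup154 GKD.

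Against the NGVP16 pair Su(var)3-9 fell by 0.99 ± 0.28 in SETDB1 GKD (adjusted p = 0.0314), by 1.47 ± 0.28 in the libraries labelled wde GKD (0.00499) and by 1.33 ± 0.28 in Nup154 GKD (0.00663). Against the virgin pair the changes were -0.65 ± 0.27 (adjusted p = 0.0968), -1.13 ± 0.28 (0.0117) and -0.99 ± 0.28 (0.0209), so that in SETDB1 GKD it passed against 1 control set and not the other. The direct differences of SETDB1 GKD were 0.48 ± 0.28 against the libraries labelled wde GKD (adjusted p = 0.495) and 0.34 ± 0.28 against Nup154 GKD (0.511).

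The exons of Su(var)3-9 share 352 of 2386 bases, 14.8%, with those of eIF2gamma on the same strand, and how shared reads were counted is not given in the sources used here. eIF2gamma, which encodes a translation initiation factor subunit, moved the same way: 506 and 412 CPM in the NGVP16 libraries, 605 and 436 in the virgin libraries, and 209 to 269 in the 6 knockdown libraries, with changes against the NGVP16 pair of -0.90, -1.11 and -1.03 (adjusted p = 0.0370, 0.0128 and 0.0162). Su(var)3-9 had 5.11 to 9.37 counts per 100 counts of eIF2gamma, and the knockdown range of 5.12 to 7.64 lay within the control range. The fall of Su(var)3-9 is therefore uncertain as a change of that gene alone.

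The call of Su(var)3-9 in SETDB1 GKD ended without NGVP16 2 (adjusted p = 0.0561), Nup154 GKD 1 or 2 (0.0675 and 0.0674) or SETDB1 GKD 1 or 2 (0.169 and 0.104). In the other knockdowns it ended against NGVP16 without wde GKD 1 (0.0517) or Nup154 GKD 1 or 2 (0.0620 and 0.0557), and against virgin without wde GKD 1 or virgin 1 (0.0971 and 0.0856), and without Nup154 GKD 1 or 2 or virgin 1 (0.119, 0.107 and 0.123). In SETDB1 GKD against NGVP16 limma voom (adjusted p = 0.136), no filter on low counts (0.0501) and a fit of only the libraries compared (0.136) also ended it, and scaling to ribosomal protein genes ended all 5 calls (0.169 to 0.716).

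**Figure D2:**
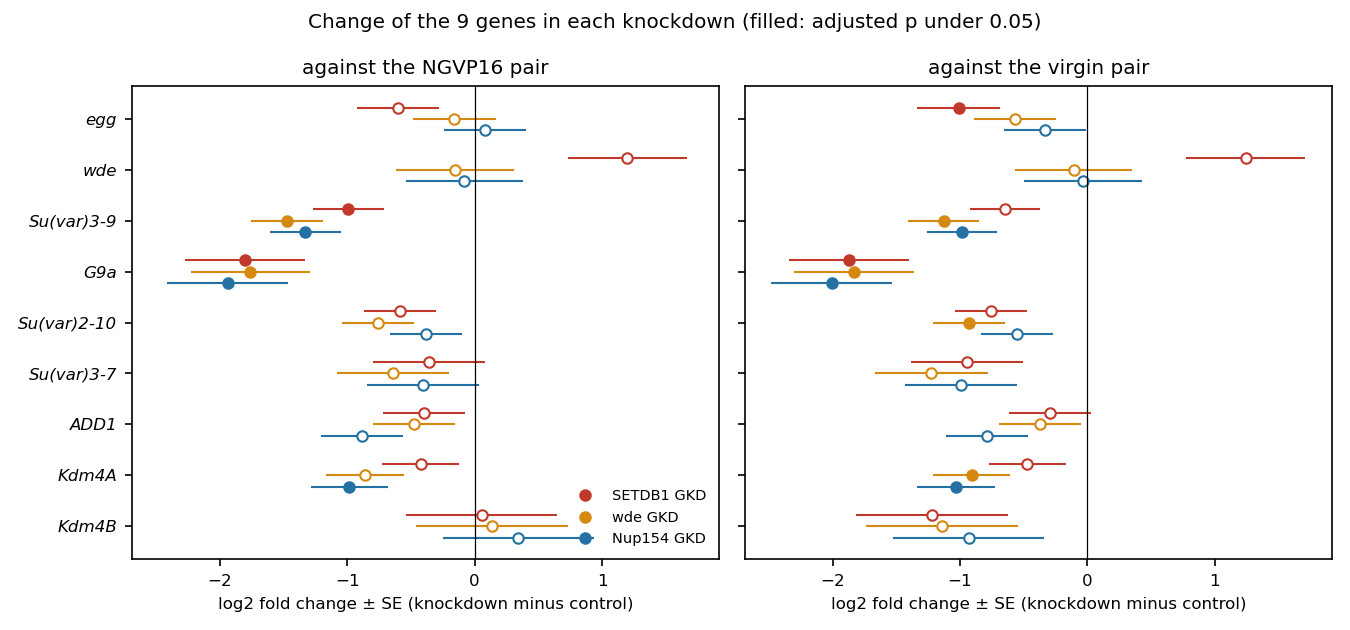
Log2 fold change of each gene in each knockdown against the NGVP16 pair (left) and the virgin pair (right), with bars for ± SE and filled points for an adjusted p under 0.05. G9a lies between -1.76 and -2.01 in all 6 comparisons and is filled in each, while wde lies to the right of 0 in SETDB1 GKD in both panels (1.20 on the left), with open points.

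The balance of the writer genes within a library shifted with the fall of G9a. Of the summed level per kb of egg, Su(var)3-9 and G9a, the G9a share was 54.2% to 68.5% in the 4 control libraries and 37.3% to 49.7% in the 6 knockdown libraries, with no overlap. The share of egg was 17.2% to 24.6% in the controls, 26.7% and 32.3% in SETDB1 GKD, 41.9% and 35.1% in the libraries labelled wde GKD and 42.8% and 44.3% in Nup154 GKD. Within the knockdowns egg thus took its smallest shares in SETDB1 GKD. The share of Su(var)3-9 ranged from 10.8% to 27.4% in the controls and from 15.8% to 25.5% in the knockdowns, and overlapped. The trend over exon length between the NGVP16 libraries is not removed from these shares, and their G9a shares were 54.2% and 67.3%. How often shares of other genes lie apart in this way is not given here.

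**Figure D3:**
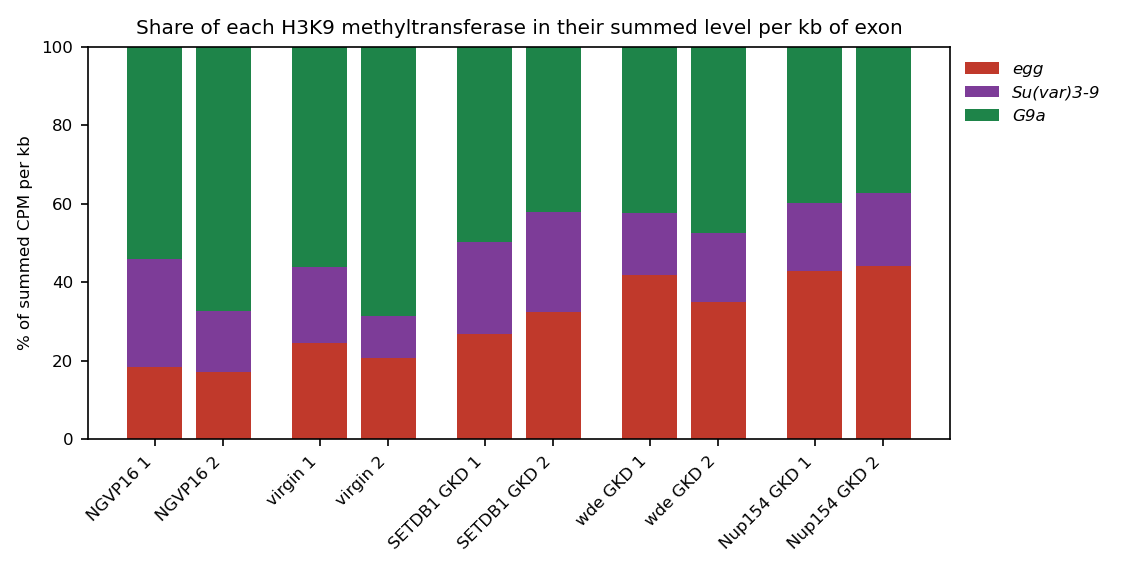
Share of egg, Su(var)3-9 and G9a in their summed CPM per kb of exon, as stacked bars that add to 100% in each of the 10 libraries. The G9a share is 54.2% or more in each control library and 49.7% or less in each knockdown library.

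Of the cofactor and partner genes, Su(var)2-10 (FBgn0003612, chromosome 2R, 9116122 to 9122000, plus strand) encodes a SUMO ligase that links piRNA-guided repression to SETDB1. Its levels were 140 and 225 CPM in the NGVP16 libraries, 176 and 235 in the virgin libraries, 122 and 122 in SETDB1 GKD, 103 and 112 in the libraries labelled wde GKD and 136 and 144 in Nup154 GKD. The libraries labelled wde GKD held the lowest values of all, as they did for 5.07% of genes tested. The gene fell there against the virgin pair (-0.93 ± 0.29, adjusted p = 0.0284), while the change against the NGVP16 pair was -0.76 ± 0.28 (0.0662). In SETDB1 GKD and Nup154 GKD it was at -0.58 ± 0.28 and -0.38 ± 0.28 against the NGVP16 pair (adjusted p = 0.165 and 0.318). Without NGVP16 1 it passed against NGVP16 in all 3 knockdowns (-0.96, -1.18 and -0.84, adjusted p = 0.00966, 0.00286 and 0.0119), and without NGVP16 2 it was at -0.20, -0.38 and 0.01. The call against virgin ended without either wde GKD library (adjusted p = 0.153 and 0.0918), virgin 2 (0.104) or either Nup154 GKD library (0.0579 and 0.0578), and with scaling to ribosomal protein genes (0.900). Against NGVP16 DESeq2 did call the gene in the libraries labelled wde GKD (0.0276).

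Su(var)3-7 (FBgn0003598, chromosome 3R, 13264364 to 13270038, plus strand) encodes a zinc finger protein that binds HP1. Its level was 45.4 and 136 CPM in the NGVP16 libraries and 113 and 160 in the virgin libraries, against 68.4 and 73.6 in SETDB1 GKD, 55.8 and 60.9 in the libraries labelled wde GKD and 71.1 and 66.2 in Nup154 GKD. Every knockdown library lay below the virgin pair and between the NGVP16 libraries. Wholly below the virgin pair lay 35.9%, 38.3% and 37.8% of all genes tested in SETDB1 GKD, the libraries labelled wde GKD and Nup154 GKD. The changes against the virgin pair were -0.94, -1.22 and -0.99 in SETDB1 GKD, the libraries labelled wde GKD and Nup154 GKD, and edgeR called none of the 3 (adjusted p = 0.125, 0.0516 and 0.102), nor those against the NGVP16 pair (0.574, 0.272 and 0.495). Of 18 alternatives against the virgin pair, 5, 8 and 6 did call it lower, among them limma voom (adjusted p = 0.0141, 0.00331 and 0.00266). Without NGVP16 1 it was lower against NGVP16 in all 3 knockdowns (-1.02, -1.35 and -1.15, adjusted p = 0.0117, 0.00251 and 0.00459), while without NGVP16 2 it was at 0.65, 0.36 and 0.60. A share of 13.7% of its exon bases lies opposite TBC1D5, which was at 10.3 to 26.4 CPM.

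ADD1 (FBgn0026573, chromosome 2R, 11970686 to 11977721, plus strand) encodes a chromatin protein found with HP1. It was at 79.9 and 149 CPM in the NGVP16 libraries, 89.3 and 124 in the virgin libraries, 78.1 and 95.8 in SETDB1 GKD and 81.8 and 82.8 in the libraries labelled wde GKD. In Nup154 GKD it was at 59.4 and 64.4 CPM, below all other libraries, as were 8.62% of genes tested. The change there was -0.89 ± 0.32 against the NGVP16 pair (adjusted p = 0.0597), and edgeR did not call it in any knockdown against either control set. It passed there in 11 of 20 alternatives, among them DESeq2 (0.0200) and the fits without NGVP16 1 (-1.42, 0.00194), SETDB1 GKD 2 (0.0383) or either virgin library (0.0365 and 0.0365). Against the virgin pair the change in Nup154 GKD was -0.79 (adjusted p = 0.0803), and 6 of 18 alternatives passed, limma voom with 0.00518. Without NGVP16 1 it also passed against NGVP16 in SETDB1 GKD (-0.85, 0.0282) and the libraries labelled wde GKD (-0.98, 0.0115).

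Among the erasers, Kdm4A (FBgn0033233, chromosome 2R, 7922775 to 7924988, minus strand) was at 31.8 and 57.0 CPM in the NGVP16 libraries and 48.8 and 43.2 in the virgin libraries. It was at 32.0 and 34.3 in SETDB1 GKD, 21.2 and 27.8 in the libraries labelled wde GKD and 23.3 and 21.7 in Nup154 GKD. The last 2 sets lay below every control library, and SETDB1 GKD above both of them. Of all genes tested, 27.5% and 28.7% lay wholly below the NGVP16 pair in those 2 sets, and 38.3% and 37.8% below the virgin pair. SETDB1 GKD lay wholly above the same sets for 26.4% and 32.7%. Kdm4A fell in Nup154 GKD against both control sets (-0.98 and -1.03, each ± 0.31, adjusted p = 0.0336 and 0.0258) and in the libraries labelled wde GKD against the virgin pair (-0.91 ± 0.30, 0.0395), where the change against the NGVP16 pair was -0.86 ± 0.30 (0.0550). In SETDB1 GKD it was at -0.42 ± 0.30 against the NGVP16 pair (adjusted p = 0.329), and at -0.86 without NGVP16 1 (0.0399).

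These calls of Kdm4A did not hold when single libraries were left out. The call in Nup154 GKD against NGVP16 ended without NGVP16 2 (-0.49, adjusted p = 0.135), Nup154 GKD 1 or 2 (0.136 and 0.169), SETDB1 GKD 1 (0.0538) or wde GKD 2 (0.0503), and against virgin without Nup154 GKD 1 or 2 or virgin 1 (0.110, 0.139 and 0.107). The call in the libraries labelled wde GKD ended without any 1 of the 8 knockdown and virgin libraries, at adjusted p from 0.0509 to 0.222. Scaling to ribosomal protein genes ended all 3 calls (0.342 to 0.922). In Nup154 GKD against NGVP16 limma voom (0.0835) and a fit of only the libraries compared (0.0927) ended it, and in the libraries labelled wde GKD DESeq2 size factors (0.0552) and removal of the exon length trend (0.0757). Against NGVP16 DESeq2 did call Kdm4A in the libraries labelled wde GKD (0.0304).

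Kdm4B (FBgn0053182, chromosome 2R, 13176553 to 13198337, minus strand) had 18 to 163 counts per library and the lowest level of the 9 genes in every set. It was at 2.29 and 7.32 CPM in the NGVP16 libraries, 8.46 and 15.1 in the virgin libraries and 4.90 to 6.75 in the 6 knockdown libraries. The virgin pair lay above all other libraries, as it did for 9.76% of genes tested, and edgeR called Kdm4B in none of the comparisons as reported. Its changes against the virgin pair were -1.22, -1.14 and -0.93 (adjusted p = 0.139, 0.148 and 0.236), and 3, 2 and 1 of 18 alternatives called it lower, each of them including removal of the exon length trend (0.0264, 0.0242 and 0.0250). Over all knockdowns against all young controls 2 of 17 alternatives did, that removal (0.0217) and the fit without NGVP16 1 (0.0380). Of its exon bases, 84.8% are shared on the same strand with CG17724 and 56.6% with seq, which had 0 counts in all 10 libraries, so its values are uncertain.

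Across the set, no member was called higher in any knockdown by edgeR, and DESeq2 called wde alone higher, in SETDB1 GKD. Against the NGVP16 pair 2 of 9 were lower in SETDB1 GKD, where 24.1% of all genes were called, 14.6% higher and 9.51% lower. In the libraries labelled wde GKD it was 2 of 9, where 35.5% were called, 21.3% higher and 14.2% lower. In Nup154 GKD it was 3 of 9, where 37% were called, 20.8% higher and 16.1% lower. The median log2 fold changes of the 9 genes were -0.42, -0.64 and -0.41, beside 0.11, 0.15 and 0.12 over all genes tested.

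Against the virgin pair 2, 4 and 3 of 9 were lower in SETDB1 GKD, the libraries labelled wde GKD and Nup154 GKD. The 2 in SETDB1 GKD were G9a and egg, the gene targeted there. The targeted genes egg and wde also enter the medians of the 9 genes. Over all genes 35%, 43.4% and 40.7% were called, with 13.2%, 17% and 16.2% lower and 21.8%, 26.4% and 24.4% higher. More members were called against NGVP16 without NGVP16 1 than without NGVP16 2 in each knockdown. The shares of all genes called in those fits are not given here, so those counts are not read as a result on the members. The medians of the 9 genes against the virgin pair were -0.76, -0.93 and -0.93, beside 0.09, 0.07 and 0.08 over all genes. The comparisons share their control libraries within each series of 3, and SETDB1 GKD, wde GKD and Nup154 GKD are each used against both control sets, so their counts are not independent of one another.

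The knockdowns were also tested directly against one another. The shares of all genes given with these tests are edgeR's, and those for the other tools or an unadjusted p are not given here. SETDB1 GKD and the libraries labelled wde GKD differed at 0 of 9 members in edgeR, where 0.287% of all genes were called (0.158% higher and 0.129% lower), with 1 member under an unadjusted p of 0.05, 0 in DESeq2 and 1, wde, in limma voom. SETDB1 GKD and Nup154 GKD differed at 0 of 9, where 3.68% were called (1.35% and 2.34%), with 1 under an unadjusted 0.05, 1 in DESeq2 and 2 in limma voom. The libraries labelled wde GKD and Nup154 GKD differed at 0 of 9, where 1.42% were called (0.871% and 0.544%), and at 0 by an unadjusted p or by either other tool. The virgin and NGVP16 pairs also differed at 0 of 9 by each of these counts, where 1.64% of genes were called (0.356% and 1.29%). Without NGVP16 2 members did pass there, and the share of all genes called in that fit is not given here.

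The 6 knockdown libraries were also compared as a whole with the 4 young controls. G9a was lower by 1.87 ± 0.29 (3.65-fold) and Su(var)3-9 by 1.09 ± 0.17 (2.13-fold), with adjusted p of 0.000803 and 0.000896. Kdm4A changed by -0.78 ± 0.19 (adjusted p = 0.00809), Su(var)2-10 by -0.66 ± 0.18 (0.0130) and Su(var)3-7 by -0.76 ± 0.28 (0.0432), so that 5 of 9 were lower where 57.1% of all genes were called, 32.2% higher and 24.9% lower. ADD1 was at -0.53 ± 0.20 (0.0504), egg at -0.43 ± 0.21 (0.103), Kdm4B at -0.46 ± 0.38 (0.322) and wde at 0.34 ± 0.30 (0.349). G9a and Su(var)3-9 were the members whose knockdown libraries all lay below all controls, as did those of 13.9% of genes tested.

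In this comparison G9a passed the test under each of 17 alternatives, with changes of -1.42 to -2.34 and adjusted p of at most 0.0450. Su(var)3-9, Kdm4A and Su(var)2-10 passed in 16 of 17, the exception in each being scaling to ribosomal protein genes (-0.64, -0.38 and -0.26, adjusted p = 0.173, 0.490 and 0.686). The call of Su(var)3-7 was lost in 8 of 17, among them without NGVP16 2 (-0.26, adjusted p = 0.147), virgin 2, SETDB1 GKD 1 or any library of the other knockdowns (0.0757 to 0.0958).

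Exon length moved with the replicate difference of the NGVP16 pair, and all 9 members were lower in NGVP16 1 than in NGVP16 2, by 0.32 for Su(var)3-9 to 1.73 for wde on the log2 scale. Genes within 1.25-fold of each member's exon length were therefore set beside it. For G9a (7235 bases of exon) the replicate difference was -1.46 and the median of 530 genes of like length was -1.32. For wde (4856 bases) it was -1.73 beside -0.95, and for Kdm4A (2022 bases) -0.84 beside 0.15. In the comparison of all knockdowns with all young controls, genes as long as G9a had a median change of 0.31 with quartiles of -0.31 and 1.42, beside the -1.87 of G9a.

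**Figure D4:**
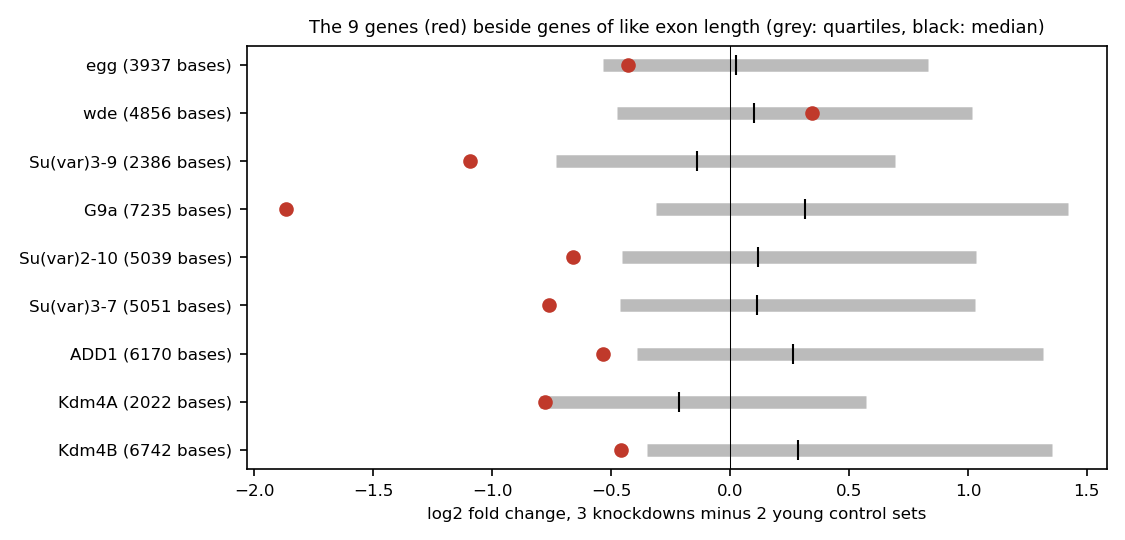
Log2 fold change of each gene (red) over the 3 knockdowns against both young control sets, beside the median (black) and quartiles (grey bar) of genes within 1.25-fold of its exon length. G9a, at -1.87, lies below the lower quartile of -0.31 of its like-length genes, and wde, at 0.34, lies between quartiles of -0.47 and 1.02.

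With the trend over exon length removed from each library, the change of G9a against the NGVP16 pair was -2.29, -2.30 and -2.69 in the 3 knockdowns and that of wde in SETDB1 GKD was 0.97 (adjusted p = 0.0138). Under that setting egg fell in SETDB1 GKD against both control sets, by 0.80 and 0.91 (adjusted p = 0.00901 and 0.00384).

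Levels per kb of exon allow the 9 genes to be put in order. In the NGVP16 pair G9a led with 48.0 ± 31.6 CPM per kb (SD, n = 2), within its spread of Su(var)2-10 with 36.2 ± 11.9, while the next 6 genes, from Kdm4A at 22.0 ± 8.84 to egg at 13.3 ± 6.55, lay within their SDs of one another. In the virgin pair G9a (50.4 ± 18.4) and Su(var)2-10 (40.8 ± 8.24) led again, and did not differ beyond their spread. In SETDB1 GKD wde led with 44.0 ± 6.11, ahead of Su(var)2-10 with 24.1 ± 0.00916. Kdm4A (16.4 ± 0.805), ADD1 (14.1 ± 2.03), Su(var)3-7 (14.1 ± 0.728) and G9a (13.8 ± 1.77) followed, none apart from its neighbour beyond their spread, then egg (8.82 ± 1.08) and Su(var)3-9 (7.34 ± 0.320).

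In the libraries labelled wde GKD and in Nup154 GKD the order began with Su(var)2-10 (21.4 ± 1.29 and 27.8 ± 1.16 CPM per kb) and wde (17.2 ± 2.70 and 18.1 ± 0.0536). Next came egg in Nup154 GKD with 14.1 ± 0.178, within the spread of Su(var)3-7, and G9a in the libraries labelled wde GKD with 14.2 ± 3.07, within the spread of wde, ADD1, Kdm4A, egg and Su(var)3-7. Su(var)3-9 and Kdm4B closed the order in each of these sets, with Kdm4B at 0.789 ± 0.0814 and 0.912 ± 0.126. G9a thus stood at place 1 of 9 in both control sets, and at places 6, 3 and 5 in SETDB1 GKD, the libraries labelled wde GKD and Nup154 GKD.

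Other genes of heterochromatin and histone methylation were counted for comparison. The shares of all genes set beside these counts are those of edgeR. For DESeq2, limma voom and an unadjusted p such shares are not given here, so those counts are not read as a result on the lists. Their counts against the NGVP16 pair stand beside 14.6%, 21.3% and 20.8% of all genes higher and 9.51%, 14.2% and 16.1% lower, in the order SETDB1 GKD, the libraries labelled wde GKD and Nup154 GKD. Of 20 heterochromatin readers and partners tested, edgeR called 3 higher and 1 lower in SETDB1 GKD, 0 and 3 in the libraries labelled wde GKD (7 at an unadjusted p under 0.05, 2 and 5 in DESeq2, 0 and 1 in limma voom) and 1 and 6 in Nup154 GKD. With the virgin pair as control edgeR called 3 and 1, 1 and 4, and 0 and 5, where DESeq2 and limma voom each called 1 higher in Nup154 GKD and 9 genes had an unadjusted p under 0.05. Over all genes 21.8%, 26.4% and 24.4% were higher with that control and 13.2%, 17% and 16.2% lower. rhi, the HP1 paralog that marks germline piRNA clusters, fell in all 3, by 0.89 ± 0.25, 2.98 ± 0.27 and 1.82 ± 0.26 (adjusted p = 0.0329, 0.000291 and 0.00118), and was higher in SETDB1 GKD than in the libraries labelled wde GKD by 2.09 ± 0.27 (0.0223). The gene of HP1a, the main reader of methylated H3K9, fell in the libraries labelled wde GKD and in Nup154 GKD (-1.06 ± 0.32 and -1.36 ± 0.32, adjusted p = 0.0335 and 0.0119), but against the virgin pair it was at -0.40 and -0.70 (0.332 and 0.110). HP6, of the HP1 family, had 315 and 169 counts in SETDB1 GKD, 35 and 24 in the libraries labelled wde GKD and 0 to 6 in the other 6 libraries. It rose in SETDB1 GKD against both control sets (adjusted p = 0.0077 and 0.0022), and no fold is given because the controls held so few counts. rhi is a germline gene, and the germline markers took fewer of the counts in the same libraries, as given above. The part of that shift in the fall of rhi was not tested.

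Another H3K9 demethylase gene, Kdm3, rose in SETDB1 GKD against both control sets, by 1.27 ± 0.30 and 0.98 ± 0.30 (adjusted p = 0.0177 and 0.0326). It also rose in Nup154 GKD against the NGVP16 pair (1.00 ± 0.30, 0.0297), though not against the virgin pair (0.71 ± 0.30, 0.0842), and over all knockdowns against all young controls (0.87 ± 0.20, 0.00547). Set directly against Nup154 GKD, the developmental control, Kdm3 in SETDB1 GKD differed by 0.27 ± 0.30 (adjusted p = 0.642). Against the libraries labelled wde GKD it differed by 0.51 ± 0.30 (0.506), so neither direct test told SETDB1 GKD apart at this gene. Kdm3 is counted in the list of readers and partners as well as among the 8 other histone lysine demethylase genes. Of these 8, edgeR called 1 higher and 1 lower in SETDB1 GKD against the NGVP16 pair (1 and 2 in DESeq2, 0 and 0 in limma voom), 0 and 2 in the libraries labelled wde GKD (3 at an unadjusted p under 0.05, 1 and 2 in DESeq2, 0 and 1 in limma voom), and 1 and 1 in Nup154 GKD. The lower one was NO66, a demethylase of the JmjC family, in each of the 3 (-1.03, -1.40 and -1.82, adjusted p = 0.0387, 0.00905 and 0.00271), joined in the libraries labelled wde GKD by HSPBAP1 (-2.58, 0.0147).

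Of 10 other histone lysine methyltransferase genes 0 passed in any knockdown against the NGVP16 pair in edgeR, where DESeq2 called 1, 1 and 0 lower, limma voom 0, and 1, 2 and 0 had an unadjusted p under 0.05. With virgin flies as control limma voom called 5, 6 and 5 lower, with no share over all genes given for that tool. edgeR called 2, 3 and 1 lower there, where it called 13.2%, 17% and 16.2% of all genes lower. NSD was among them in each knockdown (adjusted p = 0.0409, 0.00679 and 0.0176), Set2 in SETDB1 GKD and the libraries labelled wde GKD (-1.36 and -1.33, 0.0422 and 0.0384) and E(z) in the libraries labelled wde GKD (-0.91, 0.0120). Over all knockdowns against all young controls 4 of the 10 were lower, namely Set8 and, with the smallest p, NSD (-0.94 ± 0.20, adjusted p = 0.00441) and Set2 (-0.98 ± 0.28, 0.0150), which act on H3K36, and E(z), the H3K27 methyltransferase of Polycomb (-0.39 ± 0.14, 0.0427). The median of the 10 was -0.41, beside -0.66 for the 9 members and 0.12 for all genes.

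The SUMO pathway, in which Su(var)2-10 acts, had 0 of 7 genes called in SETDB1 GKD by edgeR (2 at an unadjusted p under 0.05, 1 higher in DESeq2 and 0 in limma voom), 3 lower in the libraries labelled wde GKD and 4 lower in Nup154 GKD, where 14.2% and 16.1% of all genes were lower. Aos1 and Uba2, whose products form the SUMO activating enzyme, fell in the libraries labelled wde GKD (-1.34 and -1.04, adjusted p = 0.0147 and 0.0158) and in Nup154 GKD (-1.38 and -0.94, 0.0118 and 0.0218). In the comparisons with the virgin pair Aos1 and Uba2 passed in the libraries labelled wde GKD (-1.02 and -0.78, 0.0328 and 0.0378), and in Nup154 GKD Aos1 passed (-1.07, 0.0295) and Uba2 did not (-0.68, 0.0627). The Sumo gene fell in Nup154 GKD against both control sets (-1.91 ± 0.38 and -1.22 ± 0.37, adjusted p = 0.00535 and 0.0297) and was higher in SETDB1 GKD than there by 1.73 ± 0.38 (0.0471). Of 7 genes of nuclear piRNA silencing, which guides SETDB1 to transposons, edgeR called 1, 3 and 3 lower and 0 higher against the NGVP16 pair (3 at an unadjusted p under 0.05 in each, DESeq2 2, 3 and 3 lower and 1, 0 and 0 higher, limma voom 1, 1 and 2 lower and 0 higher), with mael lower in all 3 knockdowns (-1.37, -2.32 and -1.81, adjusted p = 0.00392, 0.00039 and 0.000729). In the virgin comparisons edgeR called 2, 3 and 2 lower, mael among them each time, and 1 higher in SETDB1 GKD, which was ctp (1.11, adjusted p = 0.00977). Over all genes 13.2%, 17% and 16.2% were lower in these comparisons, and 21.8% were higher in SETDB1 GKD.

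The settings behind the SETDB1 GKD values are drawn out for the 3 writer genes and wde, since this is the knockdown of a writer itself.

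**Figure D5:**
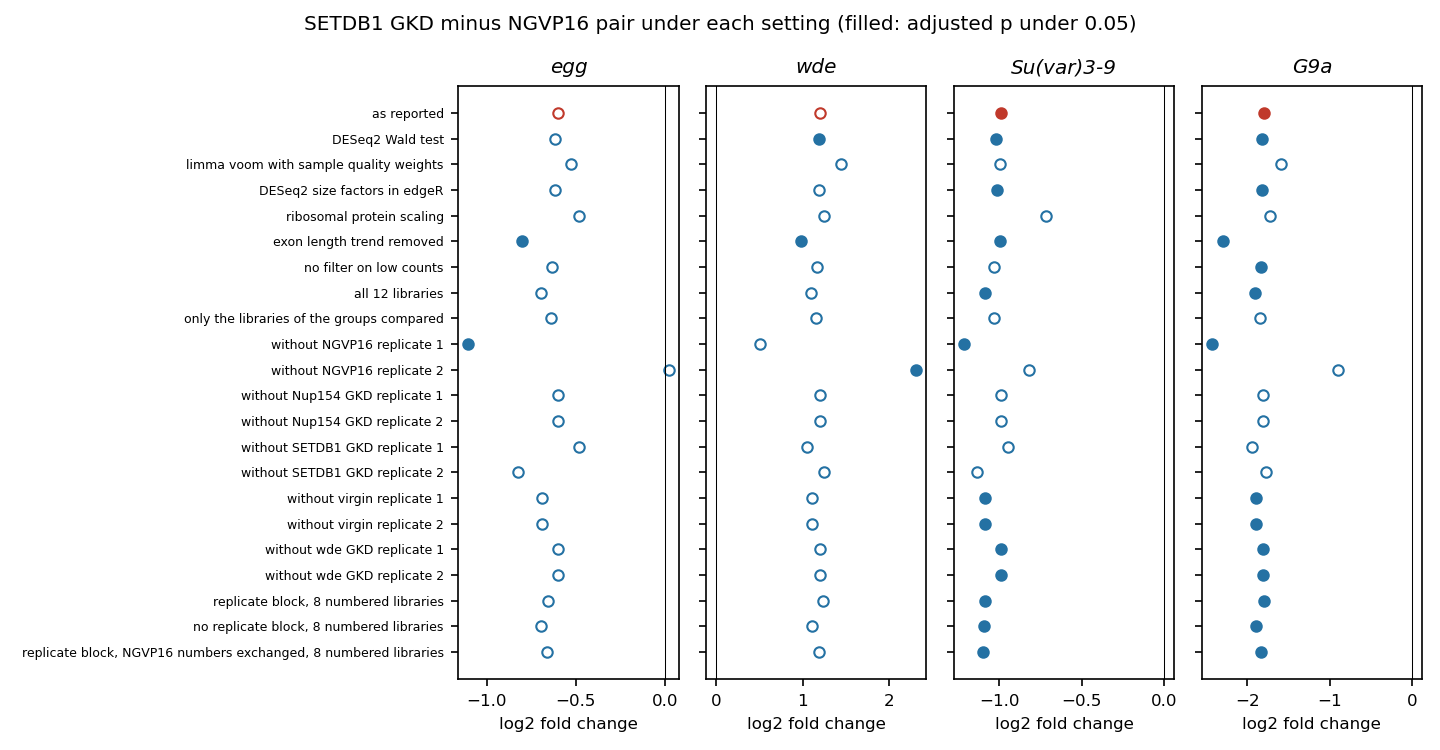
Log2 fold change of egg, wde, Su(var)3-9 and G9a in SETDB1 GKD against the NGVP16 pair as reported (red) and under each alternative (blue), filled where the adjusted p is under 0.05. wde stays to the right of 0 throughout, from 0.50 to 2.31, Su(var)3-9 and G9a stay to the left, and egg reaches 0.02 without NGVP16 2.

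Likeness of pattern over the 10 libraries was measured by Pearson's r of log2 CPM, among genes of at least 10 CPM with a name. For wde the nearest were Ulp1 (r = 0.952), armi (0.940) and stwl (0.931), for G9a msl-1 (0.992), rngo (0.982) and CycE (0.978), and for Su(var)3-9 Polr1B (0.984), kz (0.976) and mof (0.972). For egg they were atos (0.953), hb (0.951) and tamo (0.931). The nearest gene was Dis3l2 for Su(var)2-10 (0.983), mnb for Su(var)3-7 (0.979), rin for ADD1 (0.957), Gnf1 for Kdm4A (0.977) and Pez for Kdm4B (0.972). The points share the 5 sets, their depth and the length trend, so these values describe the 10 libraries only. Among the 9 members r ran from -0.15 for egg with wde to 0.91 for G9a with Su(var)2-10.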

How the data were processed

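Poly(A)-selected, directional libraries from ovaries were sequenced, and the authors deposited raw counts per FlyBase gene, 1 file a library. The submitters' processing notes name HISAT2 2.1.0, featureCounts 1.4.6, DESeq2 1.24.0 and dm6. Their roles, the annotation release, the strand setting and the handling of reads shared by genes were not given in the sources used here. Of 17023 identifiers, 16647 had a symbol and coordinates in Ensembl's BDGP6 annotation (dm6 coordinates), and 376 were kept by identifier.

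Libraries were grouped by their labels, as 10 libraries in 5 sets of 2. The deposited counts were filtered for low values, scaled by TMM and fitted with edgeR's quasi-likelihood test (edgeR 4.0.16, R 4.3.3) in 1 model with a mean for each set, 5 residual degrees of freedom; the common coefficient of biological variation was 0.387. Adjusted p-values are Benjamini-Hochberg values over 10105 genes in each comparison, with a threshold of 0.05. Standard errors were worked back from the test. Alternatives were DESeq2 1.42.0, limma voom (3.58.1) with sample weights, other scalings, removal of the exon length trend, no filter, other sets of libraries, each library left out and a replicate block. The code was tested on simulated data.

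The 9 genes, the gene lists and the tests were chosen with earlier results of these data known. The text names all 9 genes, genes that share their exons, at most 3 genes of each list with the smallest p among those that passed (Set8 is named beyond it, after its value was seen), and the 3 genes most alike in pattern. Counting error weighs most on Kdm4B, which had 18 to 163 counts a library.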

Additional observations from a re-analysis of the deposited data

Results flagged for a closer look

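By library levels alone, both SETDB1 GKD libraries lay above the control mean of wde and both libraries of another knockdown below it. The log2 change of wde in SETDB1 GKD against NGVP16 exceeded that in the libraries labelled wde GKD by 1.35 and that in Nup154 GKD by 1.27, and against virgin it exceeded that in Nup154 GKD by 1.27. A difference in direction was not shown, since the changes in the libraries labelled wde GKD and in Nup154 GKD against NGVP16 were -0.15 ± 0.46 and -0.08 ± 0.46 and turned to the other sign in 3 of 21 and 2 of 20 alternatives, and wde GKD 2 (92.9 CPM) lay at the NGVP16 mean to within rounding. The direct tests of the differences gave adjusted p of 0.253 and 0.155 (edgeR's quasi-likelihood test).

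egg in SETDB1 GKD and in the libraries labelled wde GKD lay below the NGVP16 mean and egg in Nup154 GKD above it, with differences of -0.68 and -0.24. The direct tests gave adjusted p of 0.254 and 0.750, and the change of egg in Nup154 GKD was 0.08 ± 0.32, so no difference in direction was shown here either.

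The adult control pair, outside the comparisons, held Su(var)3-7 at 651 and 507 CPM of total counts. These libraries had 39.1% and 40.7% of their counts on 358 antisense RNA genes, against at most 0.0182% in the other 10, and 5 and 6 of the 9 members at 0 counts. The strand on which they were counted was not tested.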

How the results depend on the processing

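Leaving out 1 library at a time gave ranges of called members of 0 to 7 (SETDB1 GKD), 0 to 8 (wde GKD) and 0 to 7 (Nup154 GKD) against NGVP16, 0 to 6, 0 to 7 and 0 to 6 against virgin, 0 to 1 (SETDB1 GKD against wde GKD), 0 to 2 (SETDB1 GKD against Nup154 GKD), 0 to 4 (virgin against NGVP16) and 4 to 8 (all knockdowns against all young controls). In the same order of the 6 knockdown comparisons, where 2, 2, 3, 2, 4 and 3 are reported, removal of the exon length trend gave 6, 6, 6, 6, 7 and 7 and scaling to ribosomal protein genes 0 in each. limma voom gave 0, 1, 2, 6, 6 and 6, and a fit of only the libraries compared 0, 1, 1, 5, 5 and 6. DESeq2 called 2, 4, 4, 2, 5 and 3 lower, and 1 higher in SETDB1 GKD against each control set. The fit of all 12 libraries gave 4 for wde GKD against NGVP16, and DESeq2 size factors 1 for SETDB1 GKD against virgin. With no filter there were 1 for SETDB1 GKD against NGVP16 and 5 for Nup154 GKD against virgin. SETDB1 GKD and wde GKD differed at 1 member with limma voom or the length trend removed. SETDB1 GKD and Nup154 GKD differed at 1 with DESeq2, and at 2 with limma voom, the length trend removed or only their own libraries. All knockdowns against all young controls gave 1 with ribosomal protein scaling and 8 with the length trend removed. The shares of all genes called under these settings, with 1 library left out or with a replicate block are not given here. These counts therefore describe how the calls depend on the setting and are not read as a result on the members. Ribosomal protein scaling moved the median of all genes to 0.45, 0.76 and 0.31 against NGVP16, and relative to the median G9a in SETDB1 GKD was at -2.17, beside -1.91 as reported. The cause was not tested.

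Directions turned mostly where the reported change was near 0. Over libraries left out, egg ranged from -1.10 to 0.0197 in SETDB1 GKD, from -0.71 to 0.46 in wde GKD and from -0.50 to 0.70 in Nup154 GKD against NGVP16. wde ranged from -0.89 to 0.96 in wde GKD, from -0.85 to 1.04 in Nup154 GKD and from -0.0471 to 0.90 over all knockdowns. Kdm4A ranged from -0.86 to 0.0638 in SETDB1 GKD, Su(var)2-10 from -0.84 to 0.00627 in Nup154 GKD and Kdm4B from -0.83 to 0.0788 over all knockdowns. Against NGVP16, in the order SETDB1, wde and Nup154 GKD, Su(var)3-7 ranged from -1.02 to 0.65, from -1.35 to 0.36 and from -1.15 to 0.60, and Kdm4B from -0.62 to 1.14, from -0.58 to 1.21 and from -0.41 to 1.43, while ADD1 ranged from -0.85 to 0.12 in SETDB1 GKD and from -0.98 to 0.0413 in wde GKD. Kdm4B was at -0.33, -0.31 and -0.31 there with the length trend removed, at -0.0467 and -0.0719 in SETDB1 and wde GKD with all 12 libraries, and at -0.0373 in SETDB1 GKD in the 8 numbered libraries without a block. ADD1 against virgin was at 0.19 and 0.41 in SETDB1 and wde GKD with ribosomal protein scaling. wde in wde GKD was at 0.10 with limma voom and 0.13 with ribosomal protein scaling, wde in Nup154 GKD at 0.18 with limma voom, and egg in wde GKD at 0.25 with ribosomal protein scaling. egg in Nup154 GKD was at -0.29 with the length trend removed, -0.0588 with no filter, -0.0793 with all 12 libraries and -0.0512 with only the libraries compared.

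The replicate numbers of the knockdown and NGVP16 libraries were not shown to pair them: correlations of their deviations ran from -0.18 to 0.40. With the number as a block, 2, 2 and 4 members were called in SETDB1, wde and Nup154 GKD, against 2, 4 and 4 in the same 8 libraries without it, where egg in Nup154 GKD was at -0.0425 and -0.0940. Exchanging the NGVP16 numbers, tried after the data were seen, left 2 and 2 called in SETDB1 and wde GKD.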
